A study of Mus musculus with 14 samples.

Results

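The intercalated disc is the junction that holds cardiomyocytes end to end and carries the electrical impulse between them. The 10 genes described here encode its desmosome proteins (Dsp, Pkp2, Jup, Dsg2, Dsc2), its classical cadherin (Cdh2) and 4 connexins of the heart and its vessels (Gja1, Gja4, Gja5, Gjc1). They were named as a gene list, not picked by a threshold on measured values. All 10 were found among the 20610 gene symbols named on the array, with 14 probes between them, and 13 of the probes were bright enough to be tested. Where a gene had several probes, the brightest one on average is called its leading probe. The leading probes of all 10 genes were tested, among 14863 named genes in all.

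The data are 1-colour Agilent arrays of ventricular tissue from male C57BL/6 mice aged 8 weeks, with 1 sample on each of 14 arrays. In 2 groups of 5 arrays the left anterior descending coronary artery had been ligated, which causes a myocardial infarction (MI), and ventricular border zone was collected 3 days or 14 days afterwards. The third group, sham, holds 4 arrays from mice that had the same surgery without ligation. The design text gives no harvest time for the sham hearts, and it speaks of 10 ligated and 5 sham-operated mice where 4 sham arrays were analysed here. No genotype, transgene or drug is named for any group. The labels number the arrays of a group as replicates, and no label ties an array to a single animal, so the p-values measure the spread between these samples.

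In a working cardiomyocyte, desmosomes anchor the intermediate filaments of neighbouring cells, adherens junctions join their actin filaments and sarcomeres, and gap junctions built of connexins let current pass. Desmosomal cadherins (Dsg2, Dsc2) span the gap between cells, armadillo proteins (Pkp2, Jup) bind their tails, and desmoplakin (Dsp) ties the complex to desmin filaments. Gja1 encodes the main connexin of ventricular muscle, Gja5 that of atrial muscle, of the fast conduction system and of arterial endothelium, Gja4 another connexin of arterial endothelium, and Gjc1 a connexin of the early heart, the nodes and smooth muscle. Mutations of several desmosome genes are a known cause of arrhythmogenic cardiomyopathy, and altered placement of the Gja1 protein at infarct borders is a classical subject of arrhythmia research. The arrays measure RNA of a tissue piece and show neither protein nor its place in the cell.

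Promoter sequence is shown for 3 of the genes because the RNA of the connexins Gja1 and Gja5 moved unequally after ligation, while that of Dsp, by its leading probe, was not told apart from muscle genes. Each line holds the 250 bases before the annotated start on the plus strand of GRCm38.p6, from RefSeq, at chr10:56377050-56377299 for Gja1, chr3:97032152-97032401 for Gja5 and chr13:38151044-38151293 for Dsp. Capitals mark every match, on either strand, to 5 short motifs. They are the TATA box, spelled TATAAA; the site of GATA-type factors, AGATAA; the site of T-box factors, GGTGTG; the site of NKX factors, AAGTG; and the GC box, GGGCGG.
Gja1: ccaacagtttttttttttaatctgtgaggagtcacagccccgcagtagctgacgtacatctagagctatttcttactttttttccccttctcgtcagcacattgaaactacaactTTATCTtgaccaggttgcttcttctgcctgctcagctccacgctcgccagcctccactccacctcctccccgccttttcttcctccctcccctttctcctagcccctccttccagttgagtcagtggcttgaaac
Gja5: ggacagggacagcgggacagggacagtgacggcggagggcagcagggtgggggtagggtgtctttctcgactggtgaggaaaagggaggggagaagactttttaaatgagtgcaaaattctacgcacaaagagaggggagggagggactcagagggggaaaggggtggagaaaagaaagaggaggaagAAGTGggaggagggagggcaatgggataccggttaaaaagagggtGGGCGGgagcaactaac
Dsp: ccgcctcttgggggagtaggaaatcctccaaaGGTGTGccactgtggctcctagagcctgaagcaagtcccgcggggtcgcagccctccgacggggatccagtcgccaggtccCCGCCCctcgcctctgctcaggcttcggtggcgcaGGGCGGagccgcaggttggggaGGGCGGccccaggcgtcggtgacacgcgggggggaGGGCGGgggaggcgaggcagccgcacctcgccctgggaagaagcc
The Gja1 window held a single match, to the GATA motif, starting 135 bases before the start. The Gja5 window held an NKX match 62 bases and a GC box 17 bases before the start. The Dsp window held a T-box match 218 bases before the start and GC boxes 137, 102, 80 and 45 bases before it. Among 32851 RefSeq promoter windows of the same length, the TATA box was found in 12.4%, the GATA motif in 9.99%, the T-box motif in 16.3%, the NKX motif in 40.7% and the GC box in 32.7%, so each is a common string. A match is a string of letters and not a site, and the arrays hold no measurement of binding. Entries were matched by symbol, and Pkp2 and Gjc1 had none in the promoter table.

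Levels below are log2 of the processed Cy3 signal minus the array's own 75th percentile, so 0 is the 75th percentile of that array and 1 unit is a doubling. They compare arrays for 1 probe, and levels of different genes are not compared. A change is a difference between group means of these levels, given ± SE from limma with a Benjamini-Hochberg adjusted p over all 32257 tested probes, two-sided, and a gene passed at an adjusted p under 0.05. The 75th percentile was 188.6 to 443 intensity units per array. Scanner output was used for 10 arrays (4 sham, 2 at 3 days, 4 at 14 days) on 3 slides, where 54.8% to 66.1% of probes were well above background and no probe was saturated. The leading probe of each of the 10 genes was well above background on all of these 10 arrays. The library labelled MI 14 days replicate 3 had the lowest mean correlation with its own group, 0.981, and the calls that its removal changes are given with and without it.

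**Figure D1:**
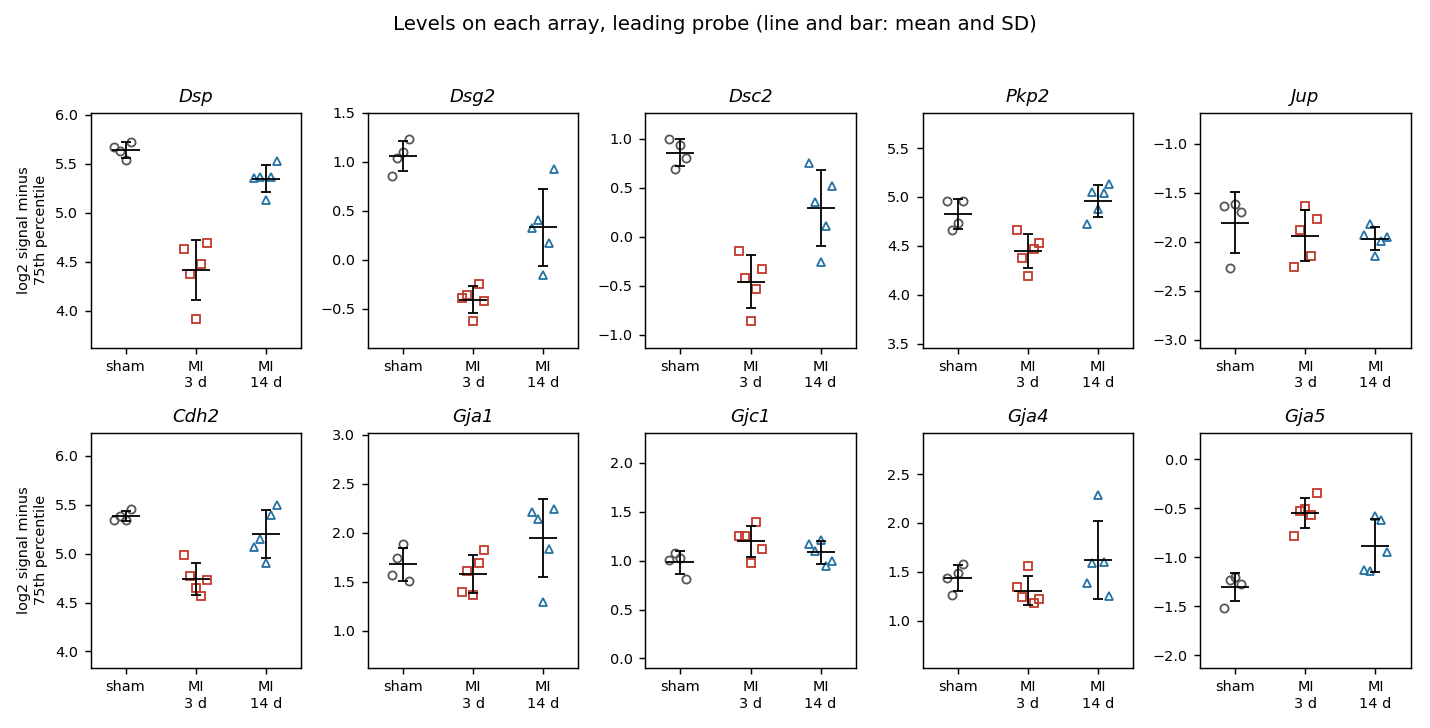
Level of each of the 10 genes on every array (leading probe; y axis, log2 signal less the 75th percentile of that array; x axis, group). Open symbols are single arrays, and the line and bar are the mean and SD of 4 sham arrays, 5 at MI 3 days and 5 at MI 14 days. The 3-day arrays of Dsp, Dsg2, Dsc2 and Cdh2 all lie below all sham arrays, and those of Gja5 all lie above them.

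After 3 days 5 of the 10 genes were lower than in sham (Dsg2, Dsc2, Dsp, Cdh2 and Pkp2), 1 was higher (Gja5), and 4 did not pass (Gja1, Gja4, Gjc1 and Jup). Over all named genes tested, 40.4% passed as lower and 29.8% as higher in that comparison, so the counts among the 10 are read against a large background of change. After 14 days 2 of the 10 were lower than in sham (Dsg2 and Dsc2) and 1 was higher (Gja5), where 24.2% of all named genes passed as lower and 15.9% as higher. Between the times 5 were higher at 14 than at 3 days (Dsp, Dsc2, Dsg2, Pkp2 and Cdh2) and 1 was lower (Gja5), against 33.6% and 26.9% of all named genes. All named genes together had a median change of -0.15 after 3 days, -0.08 after 14 days and 0.08 from the earlier to the later time. These shares show nothing particular to the 10 genes as a group, and the results below concern single genes. In bulk tissue such as this, fewer cells of a type and less RNA per cell cannot be told apart.

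Desmoplakin, the linker to the intermediate filaments, fell to 42.7% of its sham level at 3 days (95% interval 34.8% to 52.4%) and was at 81.6% at 14 days. The leading Dsp probe read 5.67, 5.63, 5.54 and 5.73 on the sham arrays. It read 4.62, 4.37, 3.92, 4.47 and 4.69 at 3 days, and 5.35, 5.37, 5.13, 5.36 and 5.52 at 14 days. The 3 groups did not overlap at all, with sham highest and 3 days lowest. The change was -1.23 ± 0.14 at 3 days (adjusted p = 3.00e-06), and the level rose by 0.93 ± 0.13 from 3 to 14 days (adjusted p = 3.92e-05). At 14 days the difference from sham was -0.29 ± 0.14 and missed the threshold in limma (adjusted p = 0.118), although every 14-day array lay below every sham array. That difference passed without MI 3 days replicate 3 (-0.29, adjusted p = 0.0303), an array that enters only through the shared spread.

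A second Dsp probe did not follow the leading one. Its level was 0.60 ± 0.38 (SD, n = 4) in sham, 0.51 ± 0.37 (SD, n = 5) at 3 days and 1.23 ± 0.31 (SD, n = 5) at 14 days, and it was above background on all 10 scanner arrays. At 3 days its change was -0.09 ± 0.22 (adjusted p = 0.733), while at 14 days it was higher than in sham by 0.63 ± 0.22 (adjusted p = 0.0414). Both probes rose between the times, the second by 0.72 ± 0.21 (adjusted p = 0.00924). Averaging the probes leaves the 3-day fall of Dsp past the threshold and turns the 14-day difference from sham to 0.17. The leading probe is printed 10 times on each array and the second once, and which transcripts each detects was not tested.

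The desmosomal cadherins fell together. Dsg2, the only desmoglein of the list that heart muscle is known to express, read 0.86, 1.04, 1.10 and 1.23 in sham and -0.39, -0.36, -0.63, -0.25 and -0.42 at 3 days. At 14 days it read 0.33, 0.40, -0.16, 0.17 and 0.92, above all 3-day arrays and, but for replicate 5, below all sham arrays. The 3-day level was 36.1% of sham (change -1.47 ± 0.17, adjusted p = 4.01e-06), the lowest percentage among the 10 genes. At 14 days Dsg2 was still lower than in sham, by -0.73 ± 0.17 (adjusted p = 0.00524), and it had risen by 0.74 ± 0.16 since 3 days (adjusted p = 0.00132).

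Dsc2, its desmocollin partner, read 1.0, 0.69, 0.94 and 0.81 in sham and -0.14, -0.42, -0.86, -0.53 and -0.33 at 3 days, with no overlap. The 14-day readings of 0.75, 0.36, -0.26, 0.11 and 0.52 spread between those groups and overlapped both. The level was 40.2% of sham at 3 days (change -1.32 ± 0.19, adjusted p = 2.76e-05) and 67.6% at 14 days (change -0.56 ± 0.19, adjusted p = 0.0324). The 14-day call rests on single arrays: it was lost without sham replicate 1 (-0.52, adjusted p = 0.0838), replicate 3 (-0.54, 0.0746) or replicate 4 (-0.58, 0.0556), and without MI 14 days replicate 3 (-0.42, 0.0658) or replicate 4 (-0.52, 0.0697). From 3 to 14 days Dsc2 rose by 0.75 ± 0.18 (adjusted p = 0.00241).

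Dsg2 and Dsc2 did not move apart detectably. The difference between their changes from sham was -0.15 at 3 days (Dsg2 minus Dsc2, exact permutation test, adjusted p = 0.449) and -0.16 at 14 days (exact permutation test, adjusted p = 0.486). A second Dsg2 probe fell by 1.33 ± 0.31 at 3 days (adjusted p = 0.00190) and gave -0.78 ± 0.31 at 14 days (adjusted p = 0.0720). On that probe MI 3 days replicate 4 stood at -1.84, close to the sham arrays of -1.78 to -1.70, while the other 3-day arrays ran from -3.67 to -3.08. On the leading Dsg2 probe the same array, at -0.25, was the highest of its group but far below sham.

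**Figure D2:**
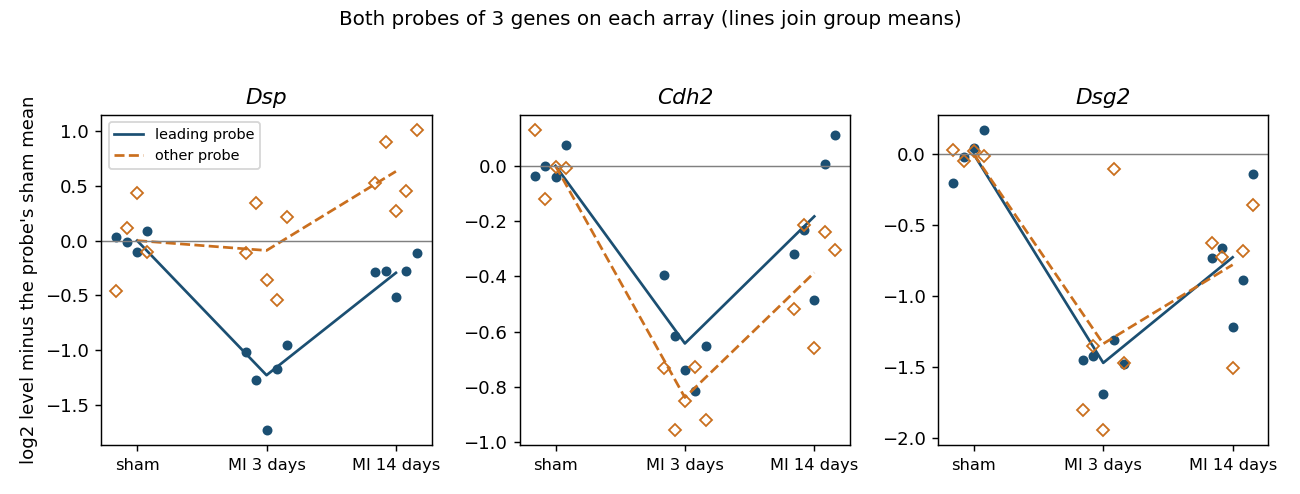
Both tested probes of Dsp, Cdh2 and Dsg2 on every array (y axis, log2 level minus that probe's sham mean; x axis, group; filled circles and solid line, leading probe; open diamonds and dashed line, other probe; lines join group means). The probes of Cdh2 and Dsg2 fell together at 3 days, while the second Dsp probe had a mean change of -0.09 against -1.23 for the leading one.

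Of the armadillo proteins that bind the cadherin tails, Pkp2 changed and Jup did not pass in any comparison. Pkp2, which also helps to organise the gap junction at the disc, read 4.96, 4.66, 4.74 and 4.96 in sham and 4.67, 4.38, 4.19, 4.47 and 4.53 at 3 days. These groups overlapped by a single array, MI 3 days replicate 1. At 14 days the readings were 4.72, 5.05, 4.88, 5.04 and 5.13, above every 3-day array and across the sham range. The 3-day level was 76.9% of sham (change -0.38 ± 0.11, adjusted p = 0.00982). Pkp2 then rose by 0.51 ± 0.11 to 14 days (adjusted p = 0.00112), where it was 0.14 ± 0.11 from sham (adjusted p = 0.395), or 0.32 under quantile normalization, which passed (adjusted p = 0.0272). The 3-day call was lost under quantile normalization (-0.20, adjusted p = 0.0973) and on the 10 arrays with scanner output (-0.32, adjusted p = 0.0817). Another background correction of those 10 arrays (normexp) ended both the 3-day fall (-0.17, adjusted p = 0.422) and the later rise (0.37, adjusted p = 0.109).

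Jup, or plakoglobin, is shared by desmosomes and adherens junctions. It read -1.63, -2.27, -1.62 and -1.70 in sham, -2.26, -1.88, -1.63, -2.15 and -1.77 at 3 days, and -1.93, -1.82, -2.15, -1.99 and -1.95 at 14 days. The groups overlapped throughout, and sham replicate 2 lay below the other sham arrays. The change was -0.13 ± 0.15 at 3 days (95% interval -0.46 to 0.20, adjusted p = 0.463) and -0.16 at 14 days (95% interval -0.50 to 0.17, adjusted p = 0.449). Those intervals leave room for a fall to 72.5% of sham at 3 days. The change of Pkp2 minus that of Jup from 3 to 14 days was 0.55, which missed the threshold over the 18 tests of gene pairs (exact permutation test, adjusted p = 0.0952).

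Cdh2, or N-cadherin, the classical cadherin of the cardiac adherens junction, fell at 3 days on both of its probes. Its leading probe read 5.35, 5.38, 5.35 and 5.46 in sham, 4.99, 4.77, 4.64, 4.57 and 4.73 at 3 days and 5.07, 5.15, 4.90, 5.39 and 5.50 at 14 days. All 3-day arrays lay below sham, and the 14-day arrays ran from the 3-day range up into the sham range. The level was 64.0% of sham at 3 days (change -0.64 ± 0.12, adjusted p = 0.000334) and rose by 0.46 ± 0.11 to 14 days (adjusted p = 0.00358). At 14 days it was -0.18 ± 0.12 from sham on the leading probe (adjusted p = 0.270). The second Cdh2 probe fell by 0.84 ± 0.10 at 3 days (adjusted p = 7.19e-06) and was still lower at 14 days, by -0.39 ± 0.10 (adjusted p = 0.0109), with all 14-day arrays below all sham arrays.

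Set against each other on the same array, the change of Dsp minus that of Cdh2 was -0.58 at 3 days, with no overlap of the arrays but an adjusted p of 0.0571 in the exact permutation test (0.0476 without MI 14 days replicate 3, which enters only through the adjustment). From 3 to 14 days the Dsp rise exceeded that of Cdh2 by 0.47 (exact permutation test, adjusted p = 0.0357). This call was lost without any single array but MI 3 days replicate 1 (exact permutation tests, adjusted p = 0.0571 to 0.103). Its size ran from 0.37 to 0.54, and was 0.45 without MI 14 days replicate 3 (adjusted p = 0.0714). Sham arrays enter this comparison only through the adjustment. With both probes of each gene averaged, the 3-day difference was 0.08 and the later one 0.37 (exact permutation test, adjusted p = 0.122), so the unequal change of the pair rests on the choice of Dsp probe.

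**Figure D3:**
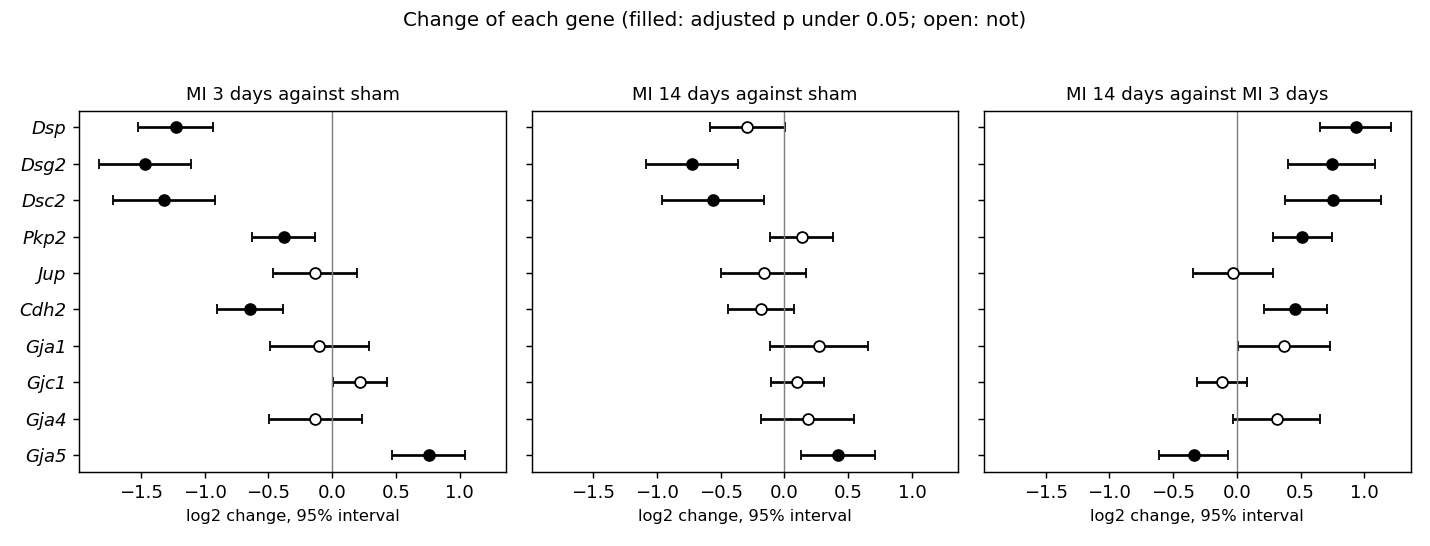
Change of each of the 10 genes in the 3 comparisons (x axis, log2 change of the leading probe with its 95% interval from limma; filled circles passed at an adjusted p under 0.05, open circles did not). Gja5 alone among them lies to the right of 0 with a filled circle at 3 and 14 days, and Jup, Gja1, Gjc1 and Gja4 have open circles in all comparisons.

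Among the connexins, Gja5 rose, and the other 3 did not pass in any comparison. Gja5 read -1.51, -1.23, -1.20 and -1.27 in sham and -0.78, -0.52, -0.51, -0.57 and -0.35 at 3 days. At 14 days it read -1.13, -1.14, -0.58, -0.62 and -0.95. All MI arrays of both times lay above all sham arrays, and the 14-day arrays fell into a lower set of 3 and a higher pair within the 3-day range. The rise was 1.69-fold at 3 days (change 0.76 ± 0.13, adjusted p = 0.000207) and 1.34-fold at 14 days (change 0.42 ± 0.13, adjusted p = 0.0281), and the level was lower at 14 than at 3 days by -0.34 ± 0.13 (adjusted p = 0.0356).

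The 3-day rise of Gja5 kept its call in each of the 25 alternatives run, at 0.61 to 0.85. The 14-day call was lost without sham replicate 1 (0.35, adjusted p = 0.0897), sham replicate 4 (0.43, 0.0504), MI 14 days replicate 3 (0.34, 0.0639) or MI 14 days replicate 4 (0.35, 0.0677). The fall from 3 to 14 days was lost in 13 of the 25 alternatives. Over all 25 its adjusted p ran from 0.0113 to 0.226 and its size from -0.41 to -0.24. Among the 13 were the removals of MI 3 days replicates 2, 3, 4 or 5 and of MI 14 days replicates 1, 2 or 5. A second Gja5 probe was above background on 1 of 4 sham, 1 of 2 3-day and 0 of 4 14-day scanner arrays and was not tested.

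Gja1, the main ventricular connexin, read 1.57, 1.74, 1.88 and 1.51 in sham, 1.39, 1.61, 1.37, 1.69 and 1.82 at 3 days, and 2.21, 2.14, 1.29, 1.83 and 2.24 at 14 days. Sham and 3-day arrays overlapped in part, with MI 3 days replicates 1 and 3 below all sham arrays. Of the 14-day arrays, 3 lay above all arrays of both groups, while replicate 3 lay below all of them. The 3-day change was -0.10 ± 0.18, or 93.4% of sham with a 95% interval of 71.5% to 121.9% (adjusted p = 0.641). On the 10 scanner arrays that small difference turned to 0.08. At 14 days the change was 0.27 ± 0.18 (95% interval -0.12 to 0.66, adjusted p = 0.274). Without MI 14 days replicate 3, the array that stands apart, it was 0.43 (adjusted p = 0.0256), and the rise from 3 to 14 days went from 0.37 ± 0.17 (adjusted p = 0.0781) to 0.53 (adjusted p = 0.00260).

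Gja4, a connexin of arterial endothelium, read 1.43, 1.26, 1.49 and 1.58 in sham, 1.35, 1.24, 1.56, 1.18 and 1.22 at 3 days and 1.39, 1.59, 2.28, 1.60 and 1.25 at 14 days. The groups overlapped, and MI 14 days replicate 3 was the highest array of all. The change was -0.13 ± 0.17 at 3 days (95% interval -0.50 to 0.23, adjusted p = 0.509) and 0.18 at 14 days (adjusted p = 0.447). The rise of 0.31 ± 0.16 between the times (adjusted p = 0.111) passed without MI 14 days replicate 5 (0.40, adjusted p = 0.0466).

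Gjc1 read 1.0, 1.08, 1.03 and 0.81 in sham, 1.25, 1.25, 0.98, 1.40 and 1.12 at 3 days and 1.17, 1.10, 1.21, 0.94 and 0.99 at 14 days. A single 3-day array, replicate 3, lay within the sham range. The 3-day change was 0.22 ± 0.10 (95% interval 0.01 to 0.43, adjusted p = 0.0644), and without that array it was 0.27 (adjusted p = 0.0231). It also passed when arrays were centred on the median of the tested probes (0.25, adjusted p = 0.0431) or on their 75th percentile (0.27, adjusted p = 0.0311). At 14 days the change was 0.10 (adjusted p = 0.459).

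Of the 6 gene pairs, those of connexins were compared within each array, and 2 such pairs changed unequally at 3 days. The level of Gja1 minus that of Gja5 was 3.09, 2.97, 3.08 and 2.78 in sham and 2.17, 2.13, 1.88, 2.26 and 2.17 at 3 days. It was lower by -0.86 with no overlap (exact permutation test, p = 0.00794, the smallest the design allows, adjusted p = 0.0357 over 18 tests). From 3 to 14 days it rose by 0.71 and missed the threshold (exact permutation test, adjusted p = 0.143), but passed without MI 14 days replicate 3 (0.95, adjusted p = 0.0476). At 14 days 4 arrays gave 2.45 to 3.34 and replicate 3 gave 1.88, and the difference from sham was -0.15 (exact permutation test, adjusted p = 0.723), or 0.09 without that array. The level of Gja4 minus that of Gja5, both known from arterial endothelium, was lower than in sham by -0.89 at 3 days (exact permutation test, adjusted p = 0.0357) and rose again by 0.65 to 14 days (exact permutation test, adjusted p = 0.0357). For Gja1 against Gjc1 the 3-day difference was -0.32 and missed the threshold (exact permutation test, adjusted p = 0.122). Between the times it was 0.48 (exact permutation test, adjusted p = 0.143) and passed without MI 14 days replicate 3 (0.68, adjusted p = 0.0476). In all, 4 of the 18 pair tests passed. The 3-day calls of Gja1 and Gja4 against Gja5 were lost without any single sham or 3-day array (exact permutation tests, adjusted p = 0.0804 to 0.103).

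Markers of heart muscle moved in the same samples. All 13 cardiomyocyte markers of a list (sarcomere and muscle genes such as Tnnt2, Myh6 and Ryr2) were tested, and all were lower than in sham at 3 days, with a median change of -1.0. At 14 days 5 of the 13 were lower, with a median of -0.16, and all 13 rose between the times. Their mean level was 8.33 to 8.53 on the sham arrays, 7.00 to 7.36 at 3 days and 7.97 to 8.47 at 14 days, and the log2 of their summed level ran over 12.65 to 12.96, 11.81 to 12.01 and 12.65 to 13.10. The mean levels of the 3-day arrays lie apart from the other groups as those of Dsp do.

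Each gene was therefore also measured as its level minus the mean of the 13 cardiomyocyte markers on the same array, which shows unequal change of the gene's leading probe and the list. On that scale 16 of 30 tests passed (10 genes in 3 comparisons, exact permutation tests adjusted over the 30). The share of all named genes passing on it was not computed. At 3 days the median change was -1.0 for the list and -0.15 for all named genes. An unchanged gene therefore also stands higher on this scale at 3 days than in sham. Removing any single 3-day array lost every 3-day call against sham on this scale (exact permutation tests, adjusted p = 0.0529). Fewer arrays raise the smallest possible p. Dsp was -2.66, -2.79, -2.88 and -2.80 in sham and -2.63, -2.85, -3.08, -2.84 and -2.67 at 3 days, overlapping throughout. The difference was -0.03 at 3 days (exact permutation test, adjusted p = 0.755) and -0.05 at 14 days (exact permutation test, adjusted p = 0.495). Dsc2 likewise was not told apart from the list, at -0.12 and -0.32 (exact permutation tests, adjusted p = 0.419 and 0.184).

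Dsg2 fell further than the mean of the cardiomyocyte list, though not further than each marker in it. Single markers with a larger 3-day change than its -1.47 were Ckm (-2.32), Ryr2 (-1.64), Tnni3 (-1.60), Myoz2 (-1.51) and Ttn (-1.49). At 14 days Ckm, at -0.83, was further below sham than Dsg2, at -0.73. Its relative level was -7.47, -7.38, -7.31 and -7.29 in sham, -7.64, -7.58, -7.63, -7.56 and -7.78 at 3 days and -7.82, -7.76, -8.13, -7.95 and -7.55 at 14 days. Neither MI group overlapped sham. Against the list mean it was lower by -0.27 at 3 days (exact permutation test, adjusted p = 0.0198) and by -0.48 at 14 days (exact permutation test, adjusted p = 0.0298). The 14-day call was lost without sham replicate 2, 3 or 4 (adjusted p = 0.0714) or MI 14 days replicate 2 or 4 (0.0536). It was also lost without any single 3-day array (0.0529), though these enter only through the adjustment and leave its size at -0.48.

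Cdh2 and Pkp2, which fell in the tissue, fell less than the mean of the list. The single marker Myh6, at -0.54, had a smaller 3-day fall than Cdh2, at -0.64. The second Cdh2 probe, at -0.84, also fell further than Myl2 (-0.74) and Myl3 (-0.76). Relative to the list mean, at 3 days Cdh2 stood higher by 0.55 (exact permutation test, adjusted p = 0.0298) and Pkp2 by 0.82 (exact permutation test, adjusted p = 0.0198). At 14 days Cdh2 differed by 0.06 (exact permutation test, adjusted p = 0.644), while Pkp2 was at 0.38 and missed the threshold (exact permutation test, adjusted p = 0.0529), which it passed without MI 14 days replicate 1 (0.44, adjusted p = 0.0476).

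Jup and the connexins stood higher than the list at 3 days, by 1.06 for Jup, 1.10 for Gja1, 1.06 for Gja4, 1.41 for Gjc1 and 1.95 for Gja5 (exact permutation tests, adjusted p = 0.0198 for each). In none of the 5 did a 3-day array overlap a sham array on this scale, where an unchanged gene also stands higher. The share of all named genes without such overlap was not computed. At 14 days Gja5 remained higher relative to the list, by 0.67 (exact permutation test, adjusted p = 0.0298). This Gja5 call was lost without any single sham array (adjusted p = 0.0893) or MI 14 days replicate 2 or 4 (0.0536). It was also lost without any single 3-day array (0.0529), though these enter only through the adjustment and leave its size at 0.67. Gja1 was at 0.52 at 14 days and missed the threshold (exact permutation test, adjusted p = 0.0529), but passed without MI 14 days replicate 3 (0.63, adjusted p = 0.0476). From 3 to 14 days Gja4 fell against the list by 0.64 (exact permutation test, adjusted p = 0.0752), and passed without that array at -0.85 (adjusted p = 0.0198). A ratio of this kind tells that the RNAs changed unequally and not which cells hold them. Jup, Gja1, Gja4 and Gjc1 did not pass against sham in limma at 3 days, while the list itself fell.

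**Figure D4:**
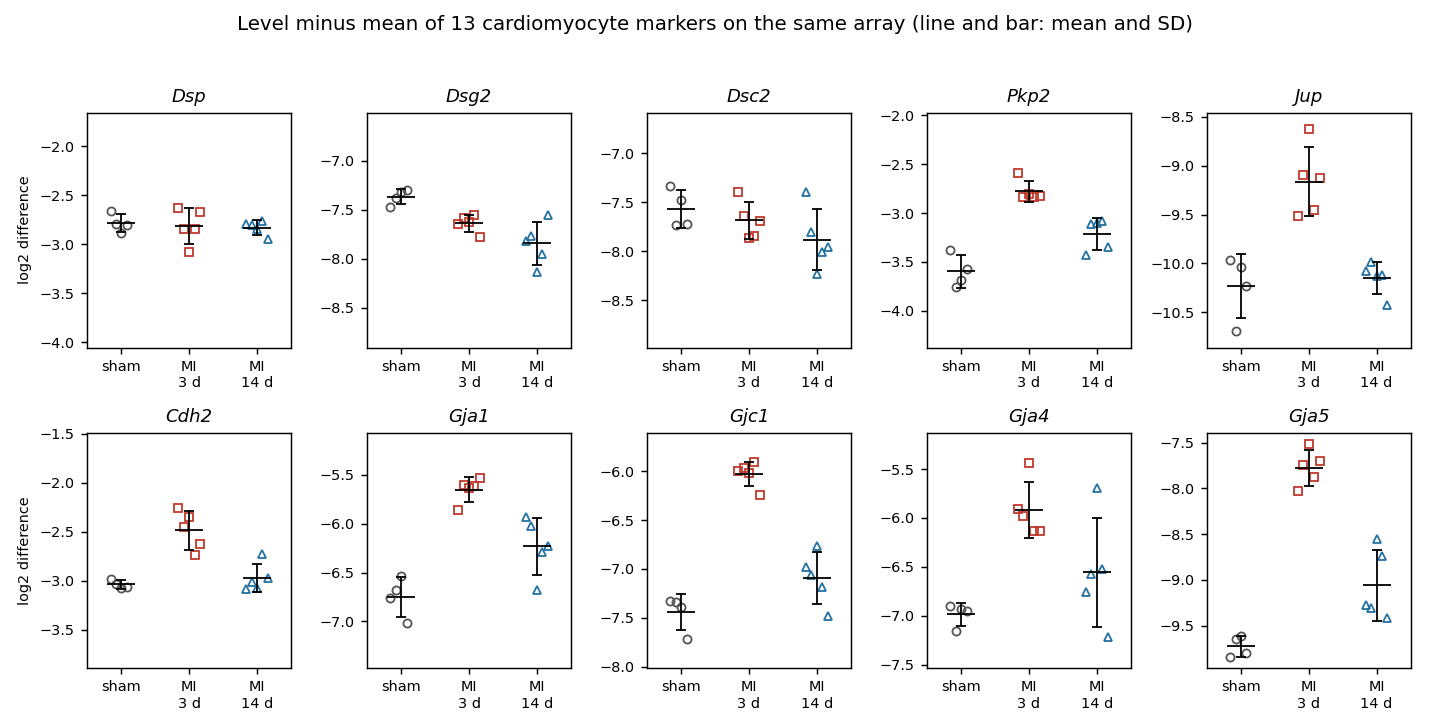
Level of each gene minus the mean level of 13 cardiomyocyte markers on the same array (y axis, log2 difference; x axis, group; open symbols, arrays; line and bar, mean and SD). Dsp stays near -2.8 in all groups and Dsg2 steps down, whereas the 3-day arrays of Pkp2, Jup, Cdh2 and all 4 connexins lie above all sham arrays. The markers themselves fell at 3 days, so an unchanged gene also stands higher there.

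Markers of other cells also moved. Of 8 arterial endothelial markers, a cell type known to hold Gja5 and Gja4, 4 were higher at 3 days (Unc5b by 1.20, Jag1 by 0.95, Dll4 by 0.38 and Efnb2 by 0.36) and 2 lower (Bmx by -0.64 and Hey1 by -0.39), and the log2 of their summed level was 4.21 to 4.43 in sham, 4.73 to 4.85 at 3 days and 4.43 to 4.87 at 14 days. Of 12 general endothelial markers 1 was higher and 4 were lower at 3 days, with summed levels of 7.70 to 7.90 in sham and 7.37 to 7.61 at 3 days. All markers of both endothelial lists were tested. The part of these cells in the rise of Gja5 was not tested.

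Markers of the other sites of Gja5 were mostly lower at 3 days. In the conduction system list, 4 of 5 tested markers were lower (Irx3 by -1.33, Cacna1g by -1.53), with summed levels of 3.22 to 3.91 in sham and 2.37 to 2.70 at 3 days. Its defining pacemaker gene Hcn4 was not well above background on all scanner arrays of any group. Of 5 tested atrial markers 4 were lower at 3 days, among them Sln by -5.12, Myl7 by -4.58 and Myl4 by -2.73, while Nppa, also a stress gene of the ventricle, was higher by 2.84. The atrial list went both ways by its summary. Its mean log2 level was 1.12 to 3.17 in sham and -0.45 to 0.46 at 3 days, whereas the log2 of its summed level, which includes Nppa, was 6.50 to 7.18 in sham, 8.99 to 9.62 at 3 days and 9.77 to 10.53 at 14 days.

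Most markers of fibroblasts, macrophages and neutrophils were higher at 3 days, with 1 of each list lower. Fibroblast markers were higher for 6 of 9 genes at 3 days and 9 of 9 at 14 days. Macrophage markers were higher for 8 of 9 and 4 of 9. Neutrophil markers were higher for 5 of 6 and 0 of 6, with a median change of 3.47 and 0.01. The log2 of the summed fibroblast level was 8.73 to 8.83 in sham and 9.77 to 10.24 at 3 days. Summed macrophage levels overlapped, at 7.56 to 7.92 in sham and 7.74 to 8.18 at 3 days. So did summed neutrophil levels, at 7.70 to 7.83 and 7.58 to 8.08. The mean log2 levels of these 2 lists did not overlap between sham and 3 days. They were 2.66 to 2.96 and 3.87 to 4.55 for macrophages, and -0.69 to -0.03 and 1.62 to 3.18 for neutrophils. Smooth muscle and pericyte markers went both ways at 3 days, 4 of 10 higher and 5 lower. Of 8 mesothelial markers, 1 was higher and 3 were lower at 3 days. Stratified epithelium, whose desmosomes share Dsp and Jup, had 5 of 8 markers tested, of which Sfn was higher and Krt10 and Trp63 lower at 3 days, while Krt1, Epcam and Cdh1 were too dim to be tested. The part of any of these cells in the changes of the 10 genes was not tested.

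Slides are the batches named by the scanner files, and those of MI 3 days replicates 1, 2 and 3 and MI 14 days replicate 2 are not known. Within slides 2 and 3, each with 1 sham and 1 3-day array, the difference was -1.07 and -1.04 for Dsp, -1.35 and -1.65 for Dsg2, -1.48 and -1.13 for Dsc2, and -0.78 and -0.73 for Cdh2. For Pkp2 it was -0.26 and -0.42 and for Gja5 0.63 and 0.93. The direction of the pooled 3-day change was thus found on both slides for all 6 genes that passed, while for Gja1 the slides gave -0.19 and 0.31. At 14 days, on slides 1 and 3, Gja5 differed from sham by 0.24 and 0.56, Dsg2 by -0.62 and -0.92 and Dsc2 by -0.09 and -0.68.

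When slide entered the fit as a block (10 scanner arrays), none of the 3 calls against sham at 14 days passed, at 0.38 for Gja5 (adjusted p = 0.108), -0.75 for Dsg2 (0.0760) and -0.49 for Dsc2 (0.178). On the same arrays without the block Dsc2 already missed the threshold (-0.58, adjusted p = 0.0574). Of the 5 rises from 3 to 14 days, that of Dsp passed under that block, and Cdh2 (0.52, adjusted p = 0.0790), Pkp2 (0.40, 0.0872), Dsc2 (0.69, 0.105) and Dsg2 (0.71, 0.120) did not. Only 2 arrays at 3 days enter this fit. The rise of Dsg2 missed the threshold on these arrays without the block too (0.65, adjusted p = 0.0638). The 3-day fall of Pkp2, lost on these arrays without the block, was -0.38 with it (adjusted p = 0.0662).

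The other genes of the same junctions were described by lists, each read against the shares of all named genes given above. Of 12 further desmosome genes only 4 were tested, since the desmogleins, desmocollins and Pkp1 of skin were too dim. All 4 (Pkp3, Ppl, Evpl and Perp) were lower at 3 days and 2 at 14 days, and all 4 rose between the times. The largest 3-day fall was that of periplakin, Ppl, a plakin of desmosomal plaques, by -2.25 ± 0.28 (adjusted p = 9.22e-06), followed by its partner envoplakin, Evpl, by -0.81 ± 0.29 (adjusted p = 0.0247). At 14 days Ppl was at -0.80 ± 0.28 (adjusted p = 0.0427) and Pkp3 at -0.32 ± 0.11 (adjusted p = 0.0392).

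Of 12 tested genes of adherens junctions and catenins, 4 were higher and 6 lower at 3 days, and 2 were higher and 4 lower at 14 days. The list median was -0.34 and -0.02. Ctnnal1, an alpha-catenin-like protein, was lower by -1.97 ± 0.14 (adjusted p = 6.42e-08), and Ctnna3, the alpha-catenin of heart muscle that binds Pkp2, by -0.98 ± 0.21 (adjusted p = 0.00110). Nectin3, an immunoglobulin-type adhesion molecule, was higher by 1.48 ± 0.12 (adjusted p = 1.15e-07). Ctnnd2 was well above background on 0 of 4 sham and 2 of 2 3-day scanner arrays, so it was tested only through groups where it was bright. It was at least 2.59-fold higher at 3 days, a bound for which no p-value is given. Such a bound sets the mean of the brighter group against the lowest signal called above background on the dim group's arrays, or the probe's own if higher. Ctnnb1, beta-catenin, gave -0.11 at 3 days (adjusted p = 0.263).

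Of 21 other disc and linker genes, 7 were higher and 12 lower at 3 days (median -0.43), 5 higher and 2 lower at 14 days, and 12 higher and 5 lower between the times. Falls were led by Tcap (titin cap) at -1.64 ± 0.17 (adjusted p = 1.82e-06) and Ldb3, a Z-disc protein, at -1.55 ± 0.13 (adjusted p = 1.80e-07). Rises were led by Xirp1, an actin-binding protein of the disc, at 1.14 ± 0.20 (adjusted p = 0.000192) and Tmem43, a nuclear envelope protein whose gene is mutated in a form of arrhythmogenic cardiomyopathy, at 0.95 ± 0.11 (adjusted p = 3.43e-06). At 14 days Xirp2, a relative of Xirp1, was higher by 0.58 ± 0.13 (adjusted p = 0.00518), while Ldb3 and Ank2 were lower by -0.65 and -0.45.

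Among 8 tested cadherins other than Cdh2, 2 were higher and 5 lower at 3 days. Cdh4, or R-cadherin, fell by 1.82 ± 0.21 (adjusted p = 4.36e-06) and Cdh13, a cadherin without a cytoplasmic tail, by 0.95 ± 0.08 (adjusted p = 3.33e-07). Cdh3 passed as higher (adjusted p = 0.000616), but it was above background on only 1 of 4 sham scanner arrays, and no size is given. Cdh11, a cadherin of fibroblasts, was higher at 14 days by 1.47 ± 0.19 (adjusted p = 0.000124).

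Of 16 connexins outside the 10 genes, 7 were tested. At 3 days 2 were higher and 2 lower, and at 14 days 1 was higher. Gja10 was lower by -1.0 ± 0.19 (adjusted p = 0.000455). Of the pannexins, channel proteins that do not form junctions in most cells, Panx1 rose from a sham level of -0.11 ± 0.27 (SD, n = 4) to 2.59 ± 0.18 at 3 days and 2.14 ± 0.28 at 14 days (SD, n = 5 each). These rises were 2.70 ± 0.16 (adjusted p = 1.02e-08) and 2.25 ± 0.16 (adjusted p = 1.75e-06), with no overlap between MI and sham arrays.

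**Figure D5:**
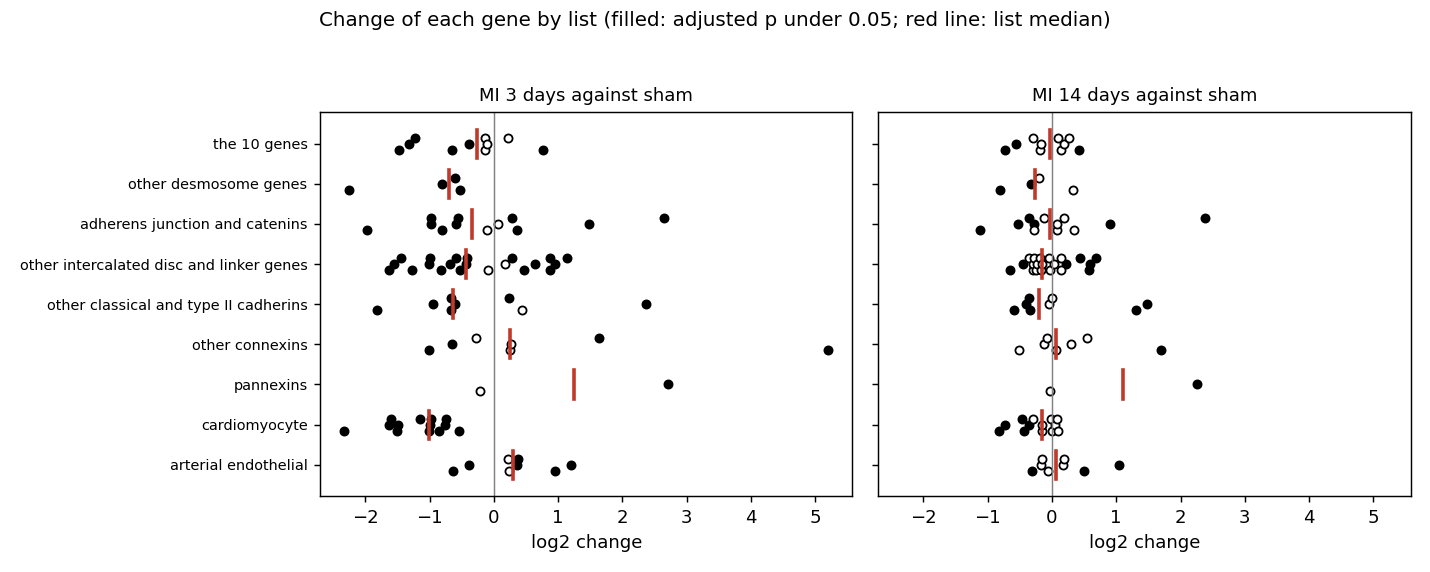
Change of each tested gene by list at 3 and 14 days (x axis, log2 change of the leading probe; filled circles passed at an adjusted p under 0.05; red line, list median). Other desmosome genes lie left of 0 at 3 days and the cardiomyocyte list has a median of -1.0. Genes that were dim in sham, such as Ctnnd2 (2.65), are drawn at fitted values, where only a lower bound holds.

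Of 13 transcription factors known to act on connexin genes, 10 were lower and 1 higher at 3 days, and 5 were lower and 1 higher at 14 days. Among all named genes 40.4% were lower and 29.8% higher at 3 days, and 24.2% and 15.9% at 14 days. The 3-day median was -0.88 for the list and -0.15 for all named genes. Tbx5, which acts on Gja5 in the developing heart, was lower by -2.44 ± 0.16 at 3 days (adjusted p = 2.61e-08) and by -1.37 ± 0.16 at 14 days (adjusted p = 5.68e-05). Hopx, a homeodomain protein of cardiomyocytes, was lower by -2.10 ± 0.20 and -1.12 ± 0.20. Tbx18 was higher by 1.21 ± 0.14 and 0.82 ± 0.14. Gja5 was thus higher in the samples in which Tbx5 was lower, and no link between them was tested.

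The named genes whose levels ran most like those of each member were found by Pearson correlation over the 14 arrays, which share the group differences, so the values describe shape only. Dsp ran closest to Myoz2 (r = 0.990), one of the 13 cardiomyocyte markers, and Pgam2 (r = 0.989), the muscle phosphoglycerate mutase. Dsg2 ran closest to Atp5d and Etfb (r = 0.988 for both), and Dsc2 to Kcnd2 (r = 0.988), a potassium channel, and Zfand1 (r = 0.987). Cdh2 ran with Pstpip2 (r = 0.971) and Pkp2 with Syt11 (r = 0.941). Gja5 ran with Kmo (r = 0.962) and the keratin Krt18 (r = 0.960). The closest genes of the members that did not pass reached lower values, at 0.855 for Gja1 (Zkscan3), 0.878 for Gja4 (Igfbp2), 0.880 for Gjc1 (Nfxl1) and 0.731 for Jup (Rabepk).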

How the data were processed

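RNA was measured on 14 single-colour Agilent mouse arrays. Per the labels, mRNA was purified on poly-T beads, yet 200 ng of total RNA entered the labelling, and these steps were not reconciled here. The series' table, as deposited by the authors, holds 1 linear Cy3 intensity per probe. Scanner intensity values and flags (other) of 10 arrays were made with Agilent Feature Extraction 10.7.3.1, per the file headers, and equal the table for single-spot probes (largest relative difference 1.2e-06). The limma named in the submitters' processing notes has no stated role or version.

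Here, log2 of the 55482 non-control probes was centred on each array's 75th percentile. The scanner files used here hold no gene-name column, so probes were named through RefSeq accessions (GRCm38.p6), and 27138 had 1 symbol and 28344 none. Tested probes (32257) are those that all scanner arrays of some group flag as well above background. One limma fit (version 3.58.1, R 4.3.3, with lmFit, eBayes and Benjamini-Hochberg adjustment) held all 3 groups, and was first tested on simulated data. The number of arrays limits the precision. Exact permutation tests over arrays, two-sided, compared single values, with a smallest p of 0.00794. Named genes of a list are those with the largest change each way among genes that passed and whose arrays do not overlap, and some of these are not reported here. Cell type markers and Ctnnb1 fall outside that rule and were named after their values were seen. The members and all lists (7 of junctions and their regulators, 11 of cell types) were chosen with earlier results of these data known. Scaling, filter, background correction, slide, replicate number, probe choice and single arrays were varied. The deviations of same-numbered arrays correlated weakly at most (13 pairs, r from -0.135 to 0.224, 5 pairs over 0.1). Numbers were not used as pairs in the main fit.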

Additional observations from a re-analysis of the deposited data

Results flagged for a closer look

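Among 39 sets of a probe and a group examined for a single distant array, 1 stood out: sham replicate 2 on the Jup probe, at -2.27, where the other sham arrays were -1.70 to -1.62. About 1 in 20 such sets is picked by chance. Without it the 3-day change of Jup was -0.29, with an adjusted p of 0.0800 in limma.

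For 6 genes the change from sham differed between the times (limma, adjusted p under 0.05), and both changes share the sham arrays. The 14-day change minus the 3-day change was 0.93 for Dsp, 0.75 for Dsc2, 0.74 for Dsg2, 0.51 for Pkp2, 0.46 for Cdh2 and -0.34 for Gja5.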

How the results depend on the processing

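The falls of Dsp, Dsg2, Dsc2 and Cdh2 and the rise of Gja5 at 3 days kept direction and call in all alternatives run. These used the leading probe or the mean over probes. The second Dsp probe alone gave -0.09 at 3 days (limma, adjusted p = 0.733). Over the changes of single genes with 1 array left out, 396 of 420 values kept both, and 301 of 339 under other settings. The planned background correction on mean signals was not run, as the scanner files used here hold no such column. Normexp on median signals, on the 10 scanner arrays, was chosen after seeing the data. Causes of the differences below were not tested, save that fewer arrays enter some fits.

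Genes higher at 3 days numbered 2 (Gjc1 joining) when arrays were centred on the median or 75th percentile of tested probes and under normexp, and 1 to 2 with 1 array left out. The Gja1 change at 3 days turned to 0.083 on the 10 scanner arrays, 0.082 under normexp and 0.14 with the slide as a block. At 14 days the slide block left 5082 probes called, against 10489 in the main fit, and 0 genes higher and 0 lower. Genes lower at 14 days numbered 1 with centring on the 75th percentile of tested probes, on the 10 scanner arrays and with no filter. Genes higher at 14 days numbered 2 under quantile normalization (Pkp2 joining) and 0 with no filter or 2 groups in the fit. With 1 array left out these counts were 1 to 3 lower and 0 to 1 higher.

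Between the times the main fit called 17945 probes. Normexp left 10625 probes called and the slide block 9127, the latter with 1 gene higher. No gene (0) was lower under centring on the 75th percentile of tested probes, on the 10 scanner arrays, under normexp, with the slide block, with no filter or with 2 groups in the fit, and 0 to 1 with 1 array left out. The Jup change between the times turned to 0.0037 under that centring, 0.0046 under normexp, and ran from -0.11 to 0.046 with 1 array left out. Averaging probes turned Dsp at 14 days to 0.17, and Dsp minus Cdh2 to 0.083 at 3 days and 0.45 at 14 days.

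Relative to the cardiomyocyte list, Dsp turned to 0.028 at 3 days on the 10 scanner arrays and to 0.0047 between the times without Myh6 and Ckm in the list. With 1 array left out it ran from -0.077 to 0.037 and from -0.083 to 0.031, and Jup at 14 days from -0.071 to 0.17. On the 10 scanner arrays 0 of the 30 relative tests and 0 of the 18 pair tests passed, and 0 to 19 and 0 to 6 with 1 array left out. Fewer arrays allow only larger p-values there, so these counts say nothing of stability. Dsg2 minus Dsc2 between the times ran from -0.10 to 0.11, and Gja1 minus Gja5 at 14 days from -0.28 to 0.089. With the replicate number as a replicate block, 1 gene was higher and 3 were lower at 14 days, Dsp joining at -0.35 (adjusted p = 0.0220). Signal over background limits the second Gja5 probe.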
